A study of Rattus norvegicus with 18 samples.

Results

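The genes described here are 10 genes of the voltage-gated calcium channel complex and its Stac adaptors, chosen by name: *Cacna1b*, *Cacna1h*, *Cacna2d1*, *Cacna2d2*, *Cacna2d3*, *Cacnb1*, *Cacnb3*, *Cacnb4*, *Stac* and *Stac2*. Of these, 9 were matched by symbol to 10 of the 15075 RefSeq identifiers in the poly(A) RNA count table, and *Stac* was not analysed here. *Stac2* was chosen because it was higher after NT3 treatment than after GFP treatment in these same rats, so its values are a description and carry no test. Every rat was an adult Lister Hooded rat. Naïve rats were unoperated and untreated. bPYX+GFP rats had both corticospinal tracts cut in the medullary pyramids and received AAV1-CMV-EGFP, a viral vector for a fluorescent protein, in the forelimb flexor muscles of 1 side. bPYX+NT3 rats had the same lesion and received AAV1-CMV-NT3, which encodes human neurotrophin-3, a growth factor for large muscle afferents. The dorsal root ganglia (DRG) of segments C6-C8 on the treated side were pooled within each rat, 10 weeks after surgery in the injured groups, and there were 6 rats per group. Untreated injured rats and naïve rats given a vector were not part of the comparison, so lesion and GFP vector cannot be told apart.

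A voltage-gated calcium channel is built around a pore subunit (a *Cacna1* gene), which opens when the membrane depolarises and lets calcium into the cell. Beta subunits (*Cacnb* genes) bind the pore inside the cell and help it reach the surface, and α2δ subunits (*Cacna2d* genes) sit outside and raise the number of channels at the membrane and the presynaptic terminal. In sensory neurons these channels drive transmitter release onto the spinal cord and shape excitability, and Stac proteins are adaptors that slow the inactivation of L-type channels.

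The identifiers held between 4 and 45472 reads in all rats together. *Cacna1b*, the pore of the N-type channel that releases transmitter at sensory terminals, had 2 identifiers. The identifier NM_147141 held 31943 reads, while NM_001195199 held 4 reads in all and did not pass the filter on low counts, so 9 identifiers were tested. Depth was 10057787 to 16002410 read-pairs on genes per rat. The share of read-pairs outside annotated exons (the no-feature share) was 30.8 to 34.6%, lowest in bPYX+NT3 rat 11 (30.85%) and bPYX+GFP rat 57 (31.7%). Neuronal and glial markers were present in every group. The summed level of 6 pan-neuronal markers was 46256 to 67011 normalised counts over all rats, and that of 4 satellite glia markers was 9260.4 to 12066. Each ganglion holds many cell types, so fewer cells of a type and less RNA per cell cannot be told apart. The per-rat count files of 17 of the 18 rats were attached to titles that name another group than the table heading does. The groups used are those of the table heading, and values with the other grouping are in the closing section.

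The promoters of *Cacna2d1* and *Cacnb3* are shown because these genes led the 2 patterns across rats described further on. Each is the RefSeq sequence (GRCr8) from 250 bases before to 50 bases after a transcription start, 5′ to 3′ on the strand of the gene, with matches to the GC box GGGCGG on either strand in capitals. The *Cacna2d1* sequence is at chr4:20330098-20330397 on the minus strand, and the *Cacnb3* sequence is at chr7:131666301-131666600 on the plus strand.
Cacna2d1: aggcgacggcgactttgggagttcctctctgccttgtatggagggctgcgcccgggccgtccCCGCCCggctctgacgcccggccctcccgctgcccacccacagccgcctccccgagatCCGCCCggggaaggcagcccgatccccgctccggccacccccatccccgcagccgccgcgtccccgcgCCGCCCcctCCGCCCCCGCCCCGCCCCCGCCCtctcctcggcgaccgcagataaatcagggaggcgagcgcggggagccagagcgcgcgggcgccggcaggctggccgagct
Cacnb3: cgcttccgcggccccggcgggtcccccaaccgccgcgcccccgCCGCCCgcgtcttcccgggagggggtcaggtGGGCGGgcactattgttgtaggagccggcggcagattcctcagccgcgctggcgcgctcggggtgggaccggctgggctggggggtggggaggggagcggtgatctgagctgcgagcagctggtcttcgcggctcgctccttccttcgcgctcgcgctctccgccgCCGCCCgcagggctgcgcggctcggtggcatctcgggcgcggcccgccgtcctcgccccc
The *Cacna2d1* window had 78.3% G and C and held 7 GC boxes, some of which overlap each other. The *Cacnb3* window had 77.7% G and C and held 3, against a median G and C content of 51.7% over all promoters. Promoters were listed for 6 of the 10 genes (8 start sites, of which 3 are overlapping windows of *Cacna2d1*). Each of the 8 windows held at least 2 GC boxes, as 17.0% of the 33469 promoters of the same length did. None of the 8 windows held the AP-1 site TGANTCA (7.33% of all promoters) or the cyclic AMP response element TGACGTCA (1.83% of all promoters). These are matches of letters only.

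Other than *Stac2*, no gene of the 9 passed an unadjusted edgeR p of 0.05 in the 3 main comparisons, and few of all genes did. Between bPYX+GFP and naïve rats 0 of the 9 genes passed an unadjusted p of 0.05 in edgeR's quasi-likelihood test, where 3.25% of all 11601 genes tested passed, so that a count of 0 among 9 is near this background. The median log2 fold change of the 9 genes was 0.00, against 0.01 over all genes. Between bPYX+NT3 and naïve rats 0 of 9 passed, against 6.01% of 11693 genes. Without *Stac2*, 6 of the other 8 fold changes were positive and their median was 0.11 on the log2 scale, against 0.00 over all genes. Leaving out naïve rat 41 gave 3 calls in this comparison. Leaving out naïve rat 49 made *Cacna2d1* a call in that of bPYX+GFP with naïve rats. The share of all genes called in these reduced fits is not given, so nothing is read from these calls. Between bPYX+NT3 and bPYX+GFP rats 1 of 9 passed, against 1.73% of 11623 genes. That gene was *Stac2*, which had been chosen on this contrast, and nothing is read from the count. DESeq2 called 0, 0 and 1 of the 9 genes in the same order of comparisons. The lowest adjusted p over all genes in these 3 comparisons was 0.20 (bPYX+GFP vs naïve), 0.61 (bPYX+NT3 vs naïve) and 0.85 (bPYX+NT3 vs bPYX+GFP), so no gene passed an adjusted p of 0.05. The 3 comparisons share groups of rats, so their values for a gene are not independent of each other.

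**Figure D1:**
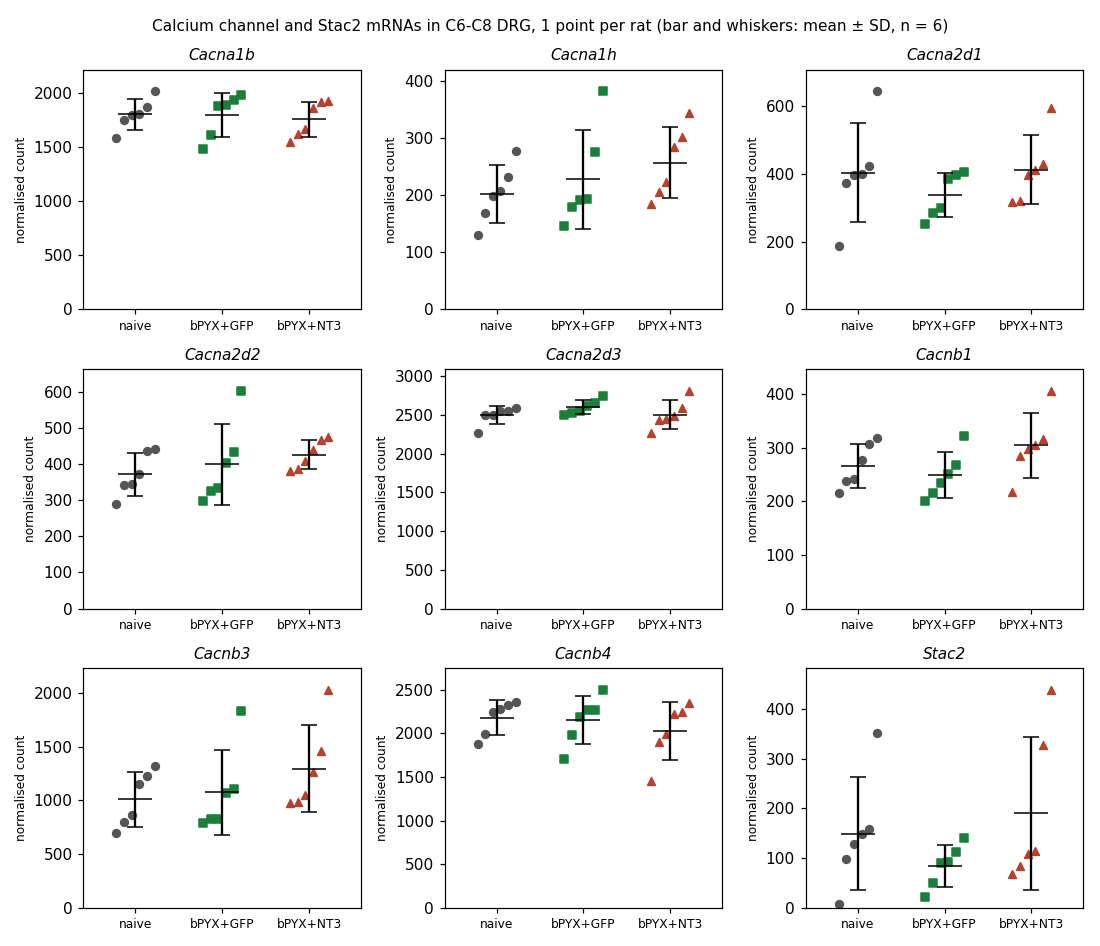
Normalised counts (counts scaled by TMM library size, y axes from 0) of the 9 tested genes in each rat, with 1 point per rat and the mean ± SD of 6 rats per group. Every group overlapped every other for each gene, and *Stac2* had the widest spread relative to its level, from 6.67 to 439 normalised counts (SD within groups 1.34 on the log2 scale).

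**Figure D2:**
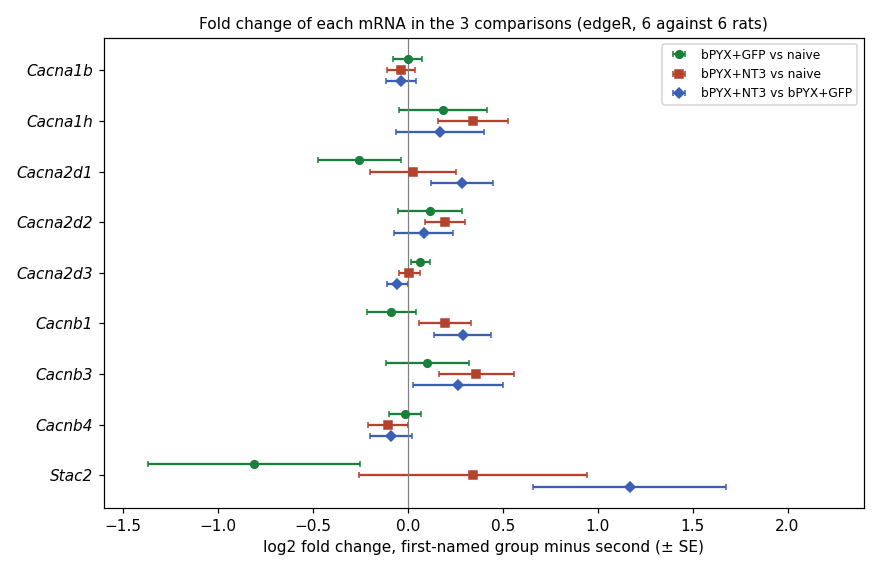
Log2 fold changes with their standard errors (x axis) for the 9 tested genes (y axis) in the 3 comparisons, edgeR with 6 against 6 rats. *Stac2* had the widest error bars (SE 0.51 to 0.60) and *Cacna2d3* the narrowest (SE 0.05 to 0.06).

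Of the adaptors, *Stac2* (NM_001108834) had its lowest mean in bPYX+GFP rats and spread widely within the other groups. It ranged from 6.67 to 352 normalised counts in naïve rats (median 138), from 21.9 to 140 under bPYX+GFP (median 90.9) and from 67.1 to 439 in bPYX+NT3 rats (median 112). The means were 149 ± 114, 84.4 ± 42.9 and 190.0 ± 154 (SD, n = 6). The groups overlapped, and the high mean of bPYX+NT3 rats came from rats 11 (439) and 17 (327), with the other 4 rats between 67.1 and 115. Naïve rat 42 (352) lay between these, and naïve rat 49 had only 6 *Stac2* reads, where counting error alone is large. The fold change on the log2 scale was 1.17 (SE 0.51) between bPYX+NT3 and bPYX+GFP rats, -0.81 (SE 0.56) between bPYX+GFP and naïve rats and 0.34 (SE 0.60) between bPYX+NT3 and naïve rats. Without rat 11 the first of these was 0.71 (SE 0.45), and without rat 17 it was 0.96 (SE 0.52). Without naïve rat 42 the difference of bPYX+GFP from naïve rats was -0.35 (SE 0.54), and without naïve rat 49 it was -1.06 (SE 0.40). The spread within groups, an SD of 1.34 on the log2 scale, ranked *Stac2* 12th from the largest of 11543 genes, where the median gene had 0.21.

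Across all 18 rats the level of *Stac2* was most like that of a set of genes that includes known markers of axon injury. The 5 genes with the largest Pearson's r with *Stac2* in log2 CPM, out of 11542, were *Ptprh* (r = 0.98), a receptor tyrosine phosphatase, *Atf3* (0.97), a transcription factor induced in sensory neurons with cut axons, *Gal* (0.96), the neuropeptide galanin, *Csrp3* (0.96), a muscle LIM protein, and *Tgm1* (0.96), a transglutaminase. These are descriptions over 18 rats and carry no p. With the 2 rats whose *Stac2* was farthest from its median left out, r was 0.95 for *Atf3* and 0.92 for *Gal*. The likeness was present within each group, with r for *Atf3* of 1.00 in naïve rats, 0.93 under bPYX+GFP and 0.97 under bPYX+NT3. *Atf3* was 225 to 717 normalised counts under bPYX+GFP, 369 to 1600.2 under bPYX+NT3 and 104 to 1205 in naïve rats. The unoperated rats therefore covered most of the range of this gene.

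Among the α2δ subunits, *Cacna2d1* (NM_012919), whose protein binds gabapentin and is known to rise in DRG neurons after nerve injury, followed *Stac2* from rat to rat. It ranged from 188 to 643 normalised counts in naïve rats (median 397), from 253 to 406 in bPYX+GFP rats (median 343) and from 317 to 596 in bPYX+NT3 rats (median 405). The groups overlapped. Naïve rat 42 and bPYX+NT3 rat 17 were the highest, and naïve rat 49 and bPYX+GFP rat 5 were the lowest. The lowest rats were also lowest for *Stac2*, where bPYX+NT3 rat 11 was above rats 42 and 17. The log2 fold change was -0.25 (SE 0.22) in bPYX+GFP against naïve rats (edgeR p = 0.26, adjusted p = 1.00; two-sided exact permutation p = 0.47). It was 0.29 (SE 0.16) in bPYX+NT3 against bPYX+GFP rats (edgeR p = 0.10, adjusted p = 0.85; exact permutation p = 0.15), and 0.03 (SE 0.23) in bPYX+NT3 against naïve rats. The smallest p this permutation test of 6 against 6 rats can give is 0.00216. Without naïve rat 49 the difference of bPYX+GFP from naïve rats was -0.40, past the unadjusted threshold, and without naïve rat 42 it was -0.072. Without bPYX+NT3 rat 17 the difference of bPYX+NT3 from bPYX+GFP rats was 0.15.

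The correlation of *Cacna2d1* with *Stac2* was r = 0.92 over 18 rats (Spearman's rho = 0.94), given as a description with no p because *Stac2* was chosen on its values. It was 0.85 with the 2 rats farthest from the median of *Stac2* left out. Within groups it was 0.97 in naïve rats, 0.90 under bPYX+GFP and 0.79 under bPYX+NT3 (n = 6 each). Of the 11542 genes ranked by likeness to *Stac2*, *Cacna2d1* was number 10. Its r with *Atf3* was 0.94. Both were counted from the same libraries. The r of *Stac2* with the summed levels of the 8 marker lists of cell types ran from -0.45 (nociceptors) to 0.41 (vessels). For *Cacna2d1* it ran from -0.59 (nociceptors) to 0.44 (vessels). Within some lists single markers had an r with *Stac2* of either sign. Among neuronal markers it was 0.56 (*Tubb3*), 0.55 (*Prph*), 0.45 (*Uchl1*) and 0.17 (*Rbfox3*), but -0.55 (*Nefl*) and -0.56 (*Isl1*). Among nociceptor markers it was -0.67 for *Scn11a*, 0.12 to 0.62 for *Calca* and -0.18 to 0.10 for the others. The part of cell type makeup in the correlation was not tested.

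**Figure D3:**
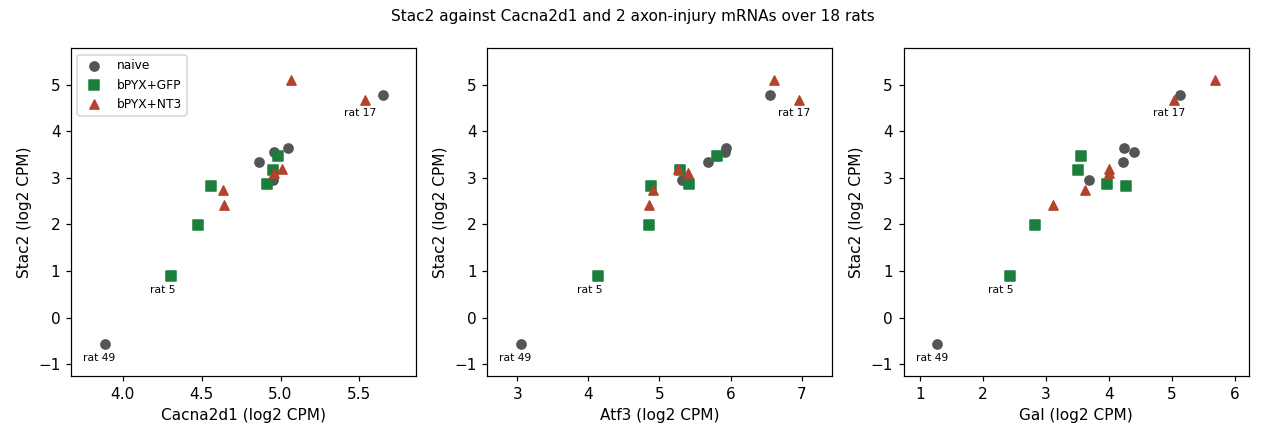
*Stac2* (y axis, log2 CPM) against *Cacna2d1*, *Atf3* and *Gal* (x axes, log2 CPM), with 1 point per rat and the groups in different symbols. Naïve rat 49 and bPYX+GFP rat 5 lie at the bottom and bPYX+NT3 rat 17 near the top in all panels, and the groups lie along 1 band.

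*Cacna2d2* (NM_175592), another gabapentin-binding subunit, and *Cacna2d3* (NM_175595), a subunit linked to heat pain, did not share this pattern. *Cacna2d2* was 289.95 to 442 normalised counts in naïve rats (median 359), 298 to 603 in bPYX+GFP rats (median 368) and 381 to 474 in bPYX+NT3 rats (median 423). All 6 bPYX+NT3 rats were above the naïve median, yet the ranges overlapped. The log2 fold change of bPYX+NT3 from naïve rats was 0.20 (SE 0.10; edgeR p = 0.081, adjusted p = 0.61; exact permutation p = 0.084). It passed the unadjusted threshold when naïve rat 41 or naïve rat 43 (log2 fold change 0.25 in each case) was left out, and ranged from 0.14 to 0.25 over all omissions. Against bPYX+GFP rats it was 0.083, with 0.24 (past the unadjusted threshold) without bPYX+GFP rat 57 and 0.011 without bPYX+GFP rat 18. *Cacna2d3* was the steadiest of the genes, with 2267.5 to 2592 normalised counts in naïve rats, 2503 to 2749 under bPYX+GFP and 2270.5 to 2813 under bPYX+NT3. Its SD within groups was 0.08 on the log2 scale, and 4.65% of genes had a smaller one. Its log2 fold changes were 0.07 (bPYX+GFP vs naïve), 0.01 (bPYX+NT3 vs naïve) and -0.06 (bPYX+NT3 vs bPYX+GFP), with standard errors of 0.05 to 0.06. Over the 18 rats *Cacna2d3* ran against *Cacna2d1* (r = -0.67, permutation p = 0.0033, adjusted p = 0.0060; rho = -0.59, permutation p = 0.011, adjusted p = 0.020). Without the 2 rats farthest from the median of *Cacna2d3* that r was -0.37, so the relation rests in part on those rats.

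Of the pore subunits, *Cacna1b* hardly varied. It was 1584 to 2017 normalised counts in naïve rats (median 1802), 1488 to 1981 in bPYX+GFP rats (median 1886) and 1548 to 1925 in bPYX+NT3 rats (median 1766). The log2 fold changes were 0.00 (SE 0.08), -0.04 (SE 0.07) and -0.03 (SE 0.08) in bPYX+GFP vs naïve, bPYX+NT3 vs naïve and bPYX+NT3 vs bPYX+GFP, and the edgeR p was 0.64 or more in each. *Cacna1h* (NM_153814), a low-threshold T-type pore that tunes the excitability of mechanoreceptors, was more variable. It was 131 to 277 normalised counts in naïve rats (median 203), 146 to 381 in bPYX+GFP rats (median 192) and 184 to 343 in bPYX+NT3 rats (median 254). Of the bPYX+NT3 rats, 5 were above the naïve median, and the ranges overlapped. The log2 fold change of bPYX+NT3 from naïve rats was 0.34 (SE 0.18; edgeR p = 0.082, adjusted p = 0.61; exact permutation p = 0.13). It passed the unadjusted threshold without naïve rat 41 (0.45) or without bPYX+NT3 rat 23 (0.42), and was 0.24 without bPYX+NT3 rat 11. In bPYX+GFP against naïve rats it was 0.18 (SE 0.23), and -0.04 without bPYX+GFP rat 57, the highest rat.

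The beta subunits went different ways. *Cacnb3* (NM_012828), a beta subunit found with N-type channels, was 699 to 1319 normalised counts in naïve rats (median 1006), 789 to 1828 in bPYX+GFP rats (median 946) and 978 to 2029 in bPYX+NT3 rats (median 1159). All 6 bPYX+NT3 rats were above the bPYX+GFP median, but bPYX+GFP rat 57 (1828) was higher than all bPYX+NT3 rats other than rat 11 (2029). The log2 fold change was 0.36 (SE 0.20) in bPYX+NT3 against naïve rats (edgeR p = 0.091, adjusted p = 0.61; exact permutation p = 0.16) and 0.27 (SE 0.24) against bPYX+GFP rats (edgeR p = 0.28, adjusted p = 0.85; exact permutation p = 0.29). Without rat 57 the latter was 0.49, and without naïve rat 41 the former was 0.45, both past the unadjusted threshold. Without bPYX+NT3 rat 11 they were smaller, at 0.083 against bPYX+GFP rats and 0.19 against naïve rats.

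*Cacnb1* (NM_017346), best known as the beta subunit of skeletal muscle, was 215 to 317 normalised counts in naïve rats (median 259), 201 to 322 in bPYX+GFP rats (median 243) and 218 to 407 in bPYX+NT3 rats (median 302). Of the bPYX+NT3 rats, 5 were above the bPYX+GFP median. The log2 fold change of bPYX+NT3 over bPYX+GFP rats was 0.29 (SE 0.15; edgeR p = 0.073, adjusted p = 0.85; exact permutation p = 0.095). It was 0.38 without rat 57 and 0.37 without bPYX+NT3 rat 23, and against naïve rats 0.27 without rat 23, all past the unadjusted threshold. Without bPYX+NT3 rat 11 it was 0.18 against bPYX+GFP rats and 0.097 against naïve rats. Summed over 5 skeletal muscle markers, the level was 16.8 to 127 normalised counts per rat, with 127 in rat 57 and 64.7 in bPYX+NT3 rat 17. It was 37.5 in bPYX+NT3 rat 11, the highest rat for *Cacnb1*. The r of *Cacnb1* with this sum was 0.40 over the 18 rats, and the part of muscle tissue was not tested. In GRCr8 *Cacnb1* lies beside *Stac2* with only *Rpl19* between them. *Cacnb1* overlaps *Rpl19*, a highly transcribed ribosomal protein gene, so reads in the overlap may be lost or shared. Other overlaps with protein-coding genes were those of *Cacnb3* with *Tuba1c*, *Cacna1h* with *Tpsg1* and *Cacna2d3* with *Lrtm1*. *Cacna2d1*, *Cacna2d2*, *Cacna2d3* and *Cacnb4* also overlap noncoding genes or a pseudogene. These are overlaps of genes in GRCr8. Whether exons overlap in Rnor_6.0, where reads were counted, was not examined. *Cacnb4* (NM_001105733), the beta subunit of many presynaptic channels, was 1876 to 2356 normalised counts in naïve rats, 1710.4 to 2498 under bPYX+GFP and 1451.5 to 2349 under bPYX+NT3. Its log2 fold changes were -0.01 (SE 0.08), -0.10 (SE 0.11) and -0.09 (SE 0.11) in bPYX+GFP vs naïve, bPYX+NT3 vs naïve and bPYX+NT3 vs bPYX+GFP, with an edgeR p of 0.34 or more. Rats 11 and 57, the highest for *Cacnb3*, were the lowest for *Cacnb4*.

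Across the 18 rats the genes fell into sets that rose and fell together. Of all 11543 genes, 67.5% had an r of at least 0.5 in size with the no-feature share. The share of all pairs of genes with an r as large as those below is not given. The sets are therefore not read as particular to the calcium channel genes. *Cacnb3*, *Cacna1h*, *Cacna2d2* and *Cacnb1* formed one, with r of 0.75 to 0.93 between any 2 of them. For *Cacnb3* and *Cacna1h*, r was 0.93 (rho = 0.93; permutation p = 1e-05 for each, the smallest that 100000 resamples can give; adjusted p = 4.5e-05 and 0.00012), and 0.89 without the 2 rats farthest from the median of *Cacnb3*. *Cacna1b* and *Cacnb4* formed another, with r = 0.85 (permutation p = 1e-05, adjusted p = 4.5e-05; rho = 0.76, permutation p = 0.00041, adjusted p = 0.0011). It was 0.82 without the 2 rats farthest from the median of *Cacnb4*. Between *Cacnb3* and *Cacnb4*, r was -0.85 (permutation p = 2e-05, adjusted p = 7.2e-05; rho = -0.81, permutation p = 6e-05, adjusted p = 0.00027) and -0.68 without the 2 rats farthest from the median of *Cacnb4*. Within groups that r was -0.79 in naïve rats, -0.93 under bPYX+GFP and -0.84 under bPYX+NT3. In all, 45 relations were computed. The 36 that do not involve *Stac2* were tested, 28 between the genes and 8 with the no-feature share, and adjusted p-values run over these 36.

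**Figure D4:**
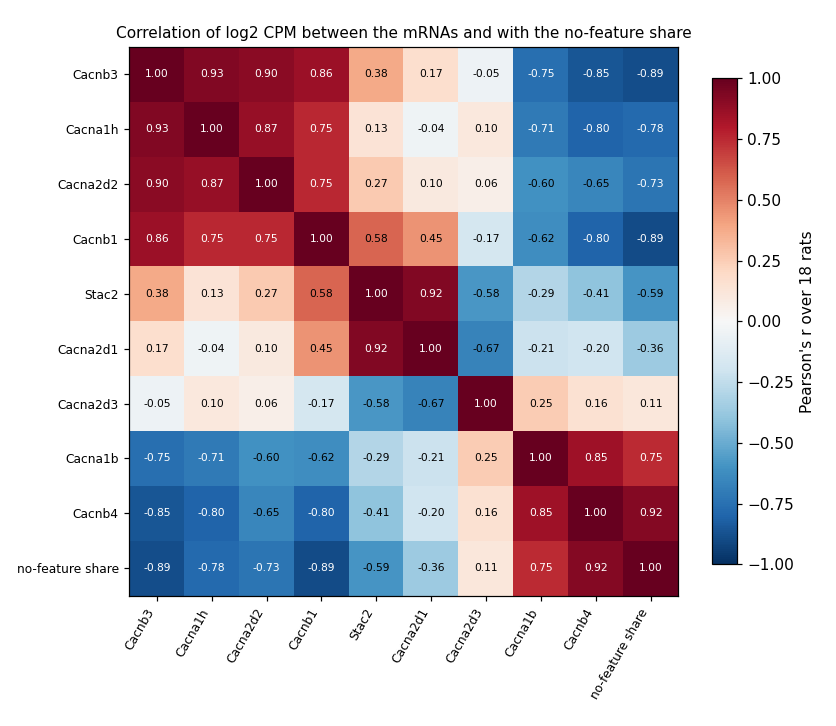
Pearson's r of log2 CPM over 18 rats between the 9 tested genes and the no-feature share of the read-pairs, on both axes, with r printed in each square (red positive, blue negative). *Cacnb3*, *Cacna1h*, *Cacna2d2* and *Cacnb1* form a red block, *Stac2* pairs with *Cacna2d1* (0.92), and *Cacna1b* pairs with *Cacnb4* (0.85).

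Most of these genes followed the no-feature share of the libraries, as most genes did. An r of at least 0.5 in size with this share was found in 67.5% of all 11543 genes (median size 0.69) and in 6 of the 8 genes other than *Stac2* (median size 0.76), so the relation was general to the libraries and a share this near the background says nothing particular of the calcium channel genes. The same 6 had an adjusted permutation p under 0.05, the exceptions being *Cacna2d1* (r = -0.36) and *Cacna2d3* (r = 0.11). *Cacnb4* rose with it (r = 0.92, rho = 0.85), while *Cacnb3* (r = -0.89, rho = -0.83) and *Cacnb1* (r = -0.89, rho = -0.90) fell with it. The permutation p of r was 1e-05 for each of these 3 genes (adjusted p = 4.5e-05). The permutation p of rho was 7e-05, 4e-05 and 1e-05 in the same order (adjusted p = 0.00028, 0.00021 and 0.00012). With the 2 rats whose share was farthest from the median left out, r was 0.77, -0.76 and -0.86. For *Stac2*, over all rats and with no p, r was -0.59 (rho = -0.57). Within groups the r of *Cacnb3* with the share was -0.83 in naïve rats, -0.93 under bPYX+GFP and -0.88 under bPYX+NT3. Cell type markers moved along as well. The r of *Cacnb3* was 0.86 with the summed level of large-fibre markers, of which 5 of 6 were matched and *Runx3* and *Etv1* were near 0 (at most 9.72 and 10.2 normalised counts), 0.67 with the 6 pan-neuronal markers, -0.67 with the 4 satellite glia markers and -0.65 with the adipocyte markers. Genes within a list went different ways. The large-fibre markers had an r with *Cacnb3* of 0.85 (*Nefh*), 0.78 (*Pvalb*) and 0.73 (*Runx3*), but 0.07 for *Spp1* and 0.12 to 0.14 for *Etv1*. Of the 3 adipocyte markers 2 were matched, *Adipoq* (r = -0.65) and *Cidec* (r = 0.54), the latter with at most 0.78 normalised counts. Among the neuronal markers r with *Cacnb3* was 0.96 for *Prph* but -0.64 for *Isl1* and -0.24 for *Nefl*, and among the satellite glia markers it was -0.88 for *Cdh19* and -0.39 for *Fabp7* but 0.74 for *Kcnj10* and 0.30 for *Glul*. The large-fibre sum was 36316 to 43035 normalised counts in naïve rats, 38062 to 52454 under bPYX+GFP and 37827 to 57155 under bPYX+NT3. These r are given without a p, and the part of cell type makeup was not tested.

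With the no-feature share in the model the log2 fold changes between bPYX+NT3 and naïve rats were 0.12 (SE 0.11) for *Cacnb3* and 0.17 (SE 0.14) for *Cacna1h*. They were 0.12 (SE 0.09) for *Cacna2d2* and 0.03 (SE 0.07) for *Cacnb1*. Without the share in the model they were 0.36, 0.34, 0.20 and 0.20 in the same order. The covariate took the *Stac2* difference between bPYX+NT3 and bPYX+GFP rats from 1.17 to 0.63 (SE 0.43) and its difference between bPYX+NT3 and naïve rats from 0.34 to -0.34 (SE 0.46). The standard error of *Cacnb3* in that comparison went from 0.20 to 0.11, and that of *Cacnb4* from 0.11 to 0.05.

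**Figure D5:**
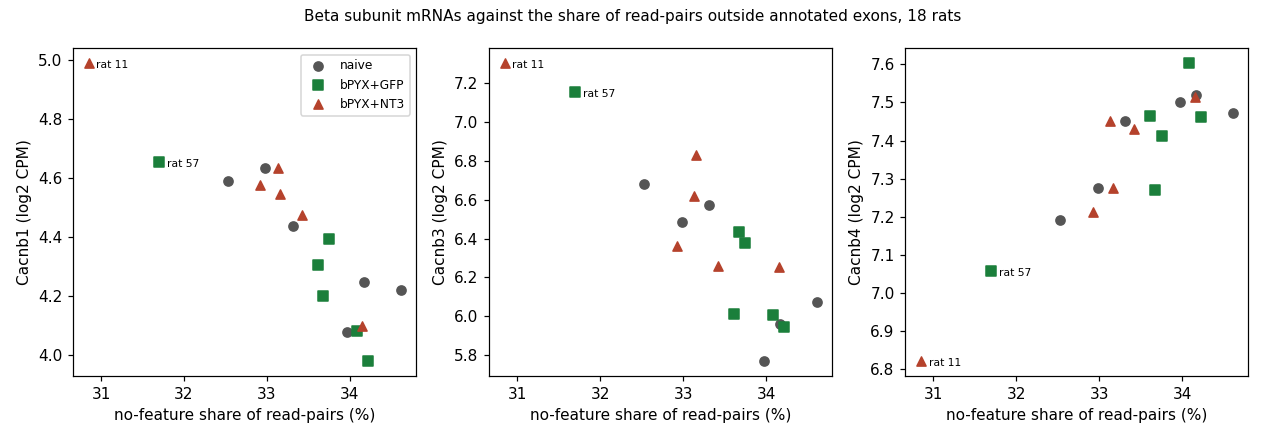
*Cacnb1*, *Cacnb3* and *Cacnb4* (y axes, log2 CPM) against the no-feature share of the read-pairs in percent (x axes), with 1 point per rat and the groups in different symbols. *Cacnb1* and *Cacnb3* are lower and *Cacnb4* is higher in rats with a larger share, with bPYX+NT3 rat 11 and bPYX+GFP rat 57 at the low end of the share.

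The other genes of the calcium channel pathway were drawn from a list of 59 genes, of which 52 were matched to the table and 42 identifiers were tested in each comparison. Between bPYX+GFP and naïve rats 1 was higher and 1 lower, against 3.25% of all genes called in either direction. *Thbs2*, a thrombospondin of a family whose members bind α2δ subunits, fell by 0.40 on the log2 scale (SE 0.12, edgeR p = 0.0046, adjusted p = 0.82; exact permutation p = 0.011), from 413 ± 56.9 to 312 ± 57.3 normalised counts. All 6 bPYX+GFP rats were below the naïve median. *Atp2a1*, the calcium pump of fast skeletal muscle, rose by 1.17 (SE 0.53, edgeR p = 0.045, adjusted p = 1.00; exact permutation p = 0.21). Its level was 77.8 normalised counts in rat 57, which also had the highest summed muscle markers, and 6.78 to 21.9 in the other 5 bPYX+GFP rats. Without rat 57 the difference was 0.28 and no longer passed, and it was also not past the threshold without naïve rat 42, 43, 44, 45 or 49 or bPYX+GFP rat 5 (1.08 to 1.21).

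Between bPYX+NT3 and naïve rats 2 of the 42 were higher and 0 lower, against 6.01% of all genes. *Calm3*, a calmodulin gene, rose by 0.27 (SE 0.12, edgeR p = 0.043, adjusted p = 0.61; exact permutation p = 0.069), with all 6 bPYX+NT3 rats above the naïve median. Without bPYX+NT3 rat 11 its difference was 0.15 and no longer passed, nor did it without naïve rat 44, 45 or 49 or bPYX+NT3 rat 2 (0.23 to 0.26) or in 1 fit over the 3 groups (0.27). *Atp2a1* rose by 0.70 (SE 0.28, edgeR p = 0.026, adjusted p = 0.61; exact permutation p = 0.039), from 11.4 ± 3.95 to 18.5 ± 6.78 normalised counts. It no longer passed without bPYX+NT3 rat 17 (0.53), the bPYX+NT3 rat with the highest summed muscle markers, without naïve rat 42 or 45 or bPYX+NT3 rat 39 (0.62 to 0.63), or in 1 fit over the 3 groups (0.70). Between bPYX+NT3 and bPYX+GFP rats 2 were higher and 0 lower, against 1.73%. *Cacng3*, a relative of the channel's gamma subunit that traffics glutamate receptors, rose by 0.29 (SE 0.12, edgeR p = 0.027, adjusted p = 0.85; exact permutation p = 0.026), from 167 ± 23.7 to 205 ± 24.8 normalised counts. It no longer passed without bPYX+NT3 rat 11 (0.22) or bPYX+GFP rat 5, 15 or 18 (0.26 in each case). *Comp*, a secreted thrombospondin of cartilage and tendon, rose by 0.82 (SE 0.37, edgeR p = 0.047, adjusted p = 0.85; exact permutation p = 0.0498), and the difference was 0.43 without bPYX+NT3 rat 11, where it no longer passed. The call was also lost without bPYX+GFP rat 5, 15, 18, 21 or 52 or bPYX+NT3 rat 17 (0.65 to 0.83) and in 1 fit over the 3 groups (0.82). All 6 bPYX+NT3 rats were above the bPYX+GFP median for *Cacng3* and for *Comp*. The pathway genes named were picked by their edgeR p in these same rats. Their permutation p and their counts above or below a median therefore describe the same values and add no evidence. None of the 5 other pore subunits tested passed the unadjusted threshold in any of the 3 comparisons, the lowest edgeR p being 0.14.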

How the data were processed

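Poly(A) RNA of the pooled C6-C8 DRG of each of 18 rats was sequenced by the authors with a stranded kit as 50 bp paired-end reads. The authors used TopHat2 to align to Rnor_6.0, Picard to remove duplicates and HTSeq to count read-pairs per RefSeq identifier; the deposited values are whole counts that are not normalized. Whether strand was used in counting is not given in the sources used here. Duplicate removal can compress high counts, and the no-feature reads were outside the library sizes. Columns were assigned by the table heading, whose numbering equals the sample descriptions. Symbols came from RefSeq (14187 of 15075 identifiers matched); that of *Stac2* came from the authors' gene list.

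Groups were compared in pairs in R 4.3.3 with edgeR 4.0.16 (TMM, estimateDisp, glmQLFit, glmQLFTest) keeping genes above 10 reads in 6 or more of 12 rats, and p was adjusted (Benjamini-Hochberg) over every gene kept. A call is an unadjusted p under 0.05, as in the authors' lists. A normalised count is the count over the effective (TMM) library size, rescaled to the mean effective size of the 18 rats. Single genes were also compared by two-sided exact permutation tests of log2 CPM (prior count 2), and correlations by 100000 resamples. Scripts were tested on simulated data. DESeq2 1.42.0, Python 3.11.15, numpy 2.4.6, pandas 2.3.3, scipy 1.17.1 and matplotlib 3.10.9 served the alternatives, the tables and the figures. The genes and lists were chosen with earlier results of these data known. The genes named are the 10 members, the pathway genes called in any comparison (at most 3 per comparison) and the 5 genes most like *Stac2*. Replicate numbers shared by the groups are not stated to mark a pairing and were not used as one in the main comparisons. Rats of the same number were alike only in part, as given in the closing section. The alternatives were other normalizations, tests, filters, covariates and groupings, and leaving out each rat.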

Additional observations from a re-analysis of the deposited data

Results flagged for a closer look

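Of the 9 genes in 3 groups, 27 sets of 6 rats were checked for a rat far from the other 5 (by Dixon's criterion for 6 values), and chance marks about 1 set in 20. In the bPYX+GFP group *Cacnb3* was 1828 normalised counts in rat 57, above the other 5 rats at 789 to 1109. In the naïve group *Cacna2d3* was 2267.5 normalised counts in rat 42, below the other 5 rats at 2498 to 2592.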

How the results depend on the processing

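Counts of calls are given in the order bPYX+GFP vs naïve, bPYX+NT3 vs naïve and bPYX+NT3 vs bPYX+GFP. They were 0, 0 and 1 of the 9 genes and 2, 2 and 2 of the other pathway genes. The share of all genes called is given only for the fits behind these counts. The counts of the other fits below therefore say nothing particular of these genes. *Stac2* is counted among the 9 genes, though its values carry no test. The likelihood ratio test, DESeq2 and DESeq2 size factors left all 6 counts within 1.5 times of these. With library size alone the counts were 0, 0 and 1 of the 9 genes and 1, 1 and 3 of the other genes. With more than 10 reads in all 12 rats the counts were 0, 0 and 1 of the 9 genes and 1, 1 and 1 of the other genes. In 1 fit over the 3 groups the counts were 0, 0 and 0 of the 9 genes and 2, 0 and 2 of the other genes. With the no-feature share in the model the counts were 0, 0 and 0 of the 9 genes and 4, 3 and 3 of the other genes. With the *Atf3* level as a covariate (chosen after the data were seen for its likeness to *Stac2*, so that it had to shrink differences of genes that follow *Stac2*) the counts were 0, 0 and 0 of the 9 genes and 1, 2 and 0 of the other genes. With the groups of the attached titles the counts were 0, 0 and 0 of the 9 genes and 1, 2 and 1 of the other genes. With those groups and a replicate block the counts were 0, 0 and 0 of the 9 genes and 0, 2 and 2 of the other genes. With the groups of the table and a replicate block (added after the data were seen) the counts were 0, 4 and 0 of the 9 genes and 1, 6 and 3 of the other genes. The 4 genes, in bPYX+NT3 vs naïve, were Cacnb3, Cacnb1, Cacna1h and Cacna2d2. The numbers are not stated to mark a pairing, and rats of the same number were alike only in part. In that comparison r of same-numbered rats was 0.286 to 0.534 in 5 of 6 pairs and -0.303 in the other, and 5 of 12 rats were most like the rat of their own number; 2 of 6 pairs of bPYX+GFP vs naïve and 3 of 6 of bPYX+NT3 vs bPYX+GFP were over 0.1. Log2 fold changes that turned direction follow, first for the genes other than *Stac2*, and of these only Atp2a1, Calm3, Cacng3 and Comp had been called; the cause was not tested. With library size alone they were in bPYX+GFP vs naïve -0.0075 for Cacna1b, in bPYX+NT3 vs bPYX+GFP 0.0030 for Cacna1b. With no filter the value was in bPYX+GFP vs naïve -0.00035 for Cacna1b. With the no-feature share in the model they were in bPYX+NT3 vs naïve 0.026 for Cacna1b, -0.11 for Cacna2d1 and 0.014 for Cacnb4, in bPYX+NT3 vs bPYX+GFP 0.026 for Cacna1b, -0.014 for Cacna2d2 and 0.012 for Cacnb4. With the replicate block of the table groups the value was in bPYX+GFP vs naïve -0.0014 for Cacna1b. With the *Atf3* covariate the value was in bPYX+NT3 vs naïve -0.027 for Cacna2d1. With the groups of the attached titles they were in bPYX+GFP vs naïve -0.18 for Cacna1h, 0.042 for Cacna2d1, -0.0032 for Cacna2d3, -0.12 for Cacnb3, 0.11 for Cacnb4 and -0.30 for Atp2a1. With the groups of the attached titles they were in bPYX+NT3 vs naïve 0.091 for Cacna1b, -0.27 for Cacna1h, -0.19 for Cacna2d1, -0.17 for Cacnb1, -0.22 for Cacnb3, 0.18 for Cacnb4 and -0.14 for Calm3. With the groups of the attached titles they were in bPYX+NT3 vs bPYX+GFP 0.011 for Cacna1b, -0.081 for Cacna1h, -0.23 for Cacna2d1, -0.066 for Cacna2d2, 0.021 for Cacna2d3, -0.17 for Cacnb1, -0.10 for Cacnb3, 0.066 for Cacnb4, -0.0060 for Cacng3 and -0.80 for Comp. With those groups and a replicate block they were in bPYX+GFP vs naïve -0.16 for Cacna1h, 0.045 for Cacna2d1, -0.0031 for Cacna2d3, 0.026 for Cacnb1, -0.043 for Cacnb3, 0.12 for Cacnb4 and -0.32 for Atp2a1. With those groups and a replicate block they were in bPYX+NT3 vs naïve 0.090 for Cacna1b, -0.33 for Cacna1h, -0.17 for Cacna2d1, -0.034 for Cacna2d2, -0.15 for Cacnb1, -0.24 for Cacnb3, 0.18 for Cacnb4, -0.11 for Atp2a1 and -0.15 for Calm3. With those groups and a replicate block they were in bPYX+NT3 vs bPYX+GFP 0.0086 for Cacna1b, -0.15 for Cacna1h, -0.23 for Cacna2d1, -0.11 for Cacna2d2, 0.024 for Cacna2d3, -0.18 for Cacnb1, -0.18 for Cacnb3, 0.062 for Cacnb4, -0.0070 for Cacng3 and -0.83 for Comp. The *Stac2* difference of bPYX+NT3 over bPYX+GFP rats, on which it was chosen, turned to -0.56 with the title groups and -0.57 with their block. Its difference of bPYX+NT3 from naïve rats turned to -0.86 and -0.58 with these, -0.34 with the no-feature share and -0.10 without rat 11, and that of bPYX+GFP from naïve rats to 0.022 with the title groups and block and 0.19 with the *Atf3* covariate. Leaving out 1 rat gave 0 to 2, 0 to 3, 0 to 4 calls among the 9 genes and 1 to 3, 0 to 4, 0 to 11 among the others, the highest being without naïve rat 49 (bPYX+GFP vs naïve, 9 genes), without naïve rat 41 (bPYX+NT3 vs naïve, 9 genes), without bPYX+NT3 rat 23 (bPYX+NT3 vs naïve, others) and without bPYX+GFP rat 57 (bPYX+NT3 vs bPYX+GFP, both). The *Stac2* difference of bPYX+NT3 over bPYX+GFP rats was 0.71 to 1.37 over all omissions. Cacna1b in bPYX+GFP vs naïve (-0.036 to 0.046 over all omissions) turned to -0.011 without rat 41, -0.036 without rat 42, -0.013 without rat 15, -0.021 without rat 18, -0.013 without rat 21 and -0.029 without rat 52. Cacna1h in bPYX+GFP vs naïve (-0.044 to 0.29 over all omissions) turned to -0.044 without rat 57. Cacna2d2 in bPYX+GFP vs naïve (-0.049 to 0.19 over all omissions) turned to -0.049 without rat 57. Cacnb3 in bPYX+GFP vs naïve (-0.13 to 0.19 over all omissions) turned to -0.13 without rat 57. Cacnb4 in bPYX+GFP vs naïve (-0.060 to 0.041 over all omissions) turned to 0.0074 without rat 44, 0.0099 without rat 45, 0.0082 without rat 5 and 0.041 without rat 57. Cacna2d1 in bPYX+NT3 vs naïve (-0.11 to 0.22 over all omissions) turned to -0.11 without rat 49 and -0.094 without rat 17. Cacna2d3 in bPYX+NT3 vs naïve (-0.023 to 0.045 over all omissions) turned to -0.015 without rat 42 and -0.023 without rat 39. The r of *Stac2* with *Cacna2d1* was 0.94 with library size alone, 0.92 with a prior count of 0.5, 0.92 with rats centred on their group means and 0.88 to 0.96 on leaving out 1 rat. For *Stac2*, with 6 to 562 reads per rat, and *Comp* and *Atp2a1* below 100 normalised counts, counting error limits single values.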
